A study of Mus musculus with 8 samples.

Results

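The insulin and insulin-like growth factor (IGF) genes examined here were 10 of the 55341 gene symbols in the count tables, chosen by name: the ligands Igf1 and Igf2, the receptors Igf1r, Igf2r and Insr, and the binding proteins Igfbp2, Igfbp3, Igfbp4, Igfbp5 and Igfbp6. All 10 were found, 9 passed the filter on low counts and 1, Igf2, was listed at 0 in every library. They were measured as nuclear RNA of GABAergic neurons, the inhibitory neurons, sorted from the cortex of juvenile mice. These nuclei carried a fluorescent protein switched on by Cre recombinase, and the sources used here do not name the Cre driver or the age in days. The PTU mice (numbers 9 to 12, n = 4) were hypothyroid because their mothers had received propylthiouracil, a blocker of thyroid hormone synthesis, during gestation. The PTU+TH mice (numbers 13 to 16, n = 4) were hypothyroid in the same way and received an injection of thyroid hormone (TH) into the abdomen 24 h ahead of tissue collection. No euthyroid group was part of the comparison, so both groups share the PTU treatment.

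IGF-1 and IGF-2 are secreted peptides related to insulin. Both activate the IGF-1 receptor, a tyrosine kinase that signals through insulin receptor substrate (IRS) adaptors to PI3K and AKT. The insulin receptor belongs to the same kinase family, and the IGF-2 receptor takes up IGF-2 for degradation. IGF-binding proteins hold the ligands outside the cell and are cut by proteases such as PAPP-A, which stanniocalcins inhibit. In the mouse cortex Igf1 is known from some interneurons, among them cells of the VIP class, and from microglia.

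Thyroid hormone receptors bind DNA at the half-site AGGTCA, often as a direct repeat of that half-site with 4 bases between the copies. Both strands were searched in the 250 bases before each RefSeq start site (build GRCm38.p6). RefSeq windows were matched for 9 members, with 13 windows in all, since Igf2 and Igfbp2 have several. Insr had no window and was not searched. The half-site was found in 4 of these 13 windows, against 14.0% of the 32851 windows of all genes, and the direct repeat in 5 windows of all genes and in no member's. The 4 sites shown are all the matches found among the members, and the other windows of Igf2 held none. The capitals mark the half-site, read 5′ to 3′ on the strand of the gene, with 12 bases on each side.
Igf1, chr10:87860938-87860967, plus strand: ctcagggaagagAGGTCAgctgcctagagc
Igf2, chr7:142667033-142667062, minus strand: gcaccagtggctTGACCTctctgtgtctat
Igf1r, chr7:67952159-67952188, plus strand: cgtgctcggcttTGACCTtcagcgagccgg
Igf2r, chr17:12769700-12769729, minus strand: gcgggccgactcAGGTCAcgtgacgctccg
In the GENCODE M21 annotation, the site of Igf1 lies in an exon of 2 longer Igf1 transcripts and inside Igf1os. Those of Igf2 and Igf2r lie in introns of genes that overlap them (Gm49394 and Igf2os, and Airn), and that of Igf1r lies in no gene. The sites lie 161, 234, 86 and 11 bases before the start of Igf1, Igf2, Igf1r and Igf2r. A match in the letters is a description and shows no binding. No half-site was found in the windows of Igfbp2, Igfbp3, Igfbp4, Igfbp5 or Igfbp6.

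Libraries held 21.8 to 29.1 M counts. Abundance is given in CPM, counts scaled to a common library size after TMM normalization, and differences as log2 fold changes of PTU+TH over PTU with standard errors (SE) from edgeR's quasi-likelihood test. Genes were called where the p-value, adjusted over the 17355 genes tested, was under 0.05. Hr, Klf9 and Dbp, which are known TH response genes, were higher in all 4 PTU+TH libraries than in any PTU library, by 3.88, 1.37 and 1.09 on the log2 scale (adjusted p in the edgeR quasi-likelihood test = 6.59e-07, 0.00223 and 0.00639). Gad1 and Gad2, which make GABA, stood at 470.8 and 426.6 CPM in PTU. Dlx1 and Dlx6, transcription factors of the same lineage, were listed at 0, and neither has a base free of other genes. The labels name no batch or sex. Mice 15 and 16 had 0 counts over 4 Y-linked genes, and the other 6 had 7960 to 11548. Libraries of mice 9 and 10 were more alike than either was to 11 and 12, with a chi-square per degree of freedom of 18.6 against 29.7 to 72.6, and the same held for 13 and 14 against 15 and 16 (8.38 against 16.4 to 24.8).

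Among the 9 tested members, 1 was called higher, Igf1, and 0 were called lower. Over all genes tested, 1.49% were called higher and 0.634% lower. The median log2 fold change was -0.03 over the 9 members and -0.01 over all genes tested. Groups did not overlap in 2 members, Igf1 (higher) and Igfbp3 (lower), against 8.71% of all genes tested.

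**Figure D1:**
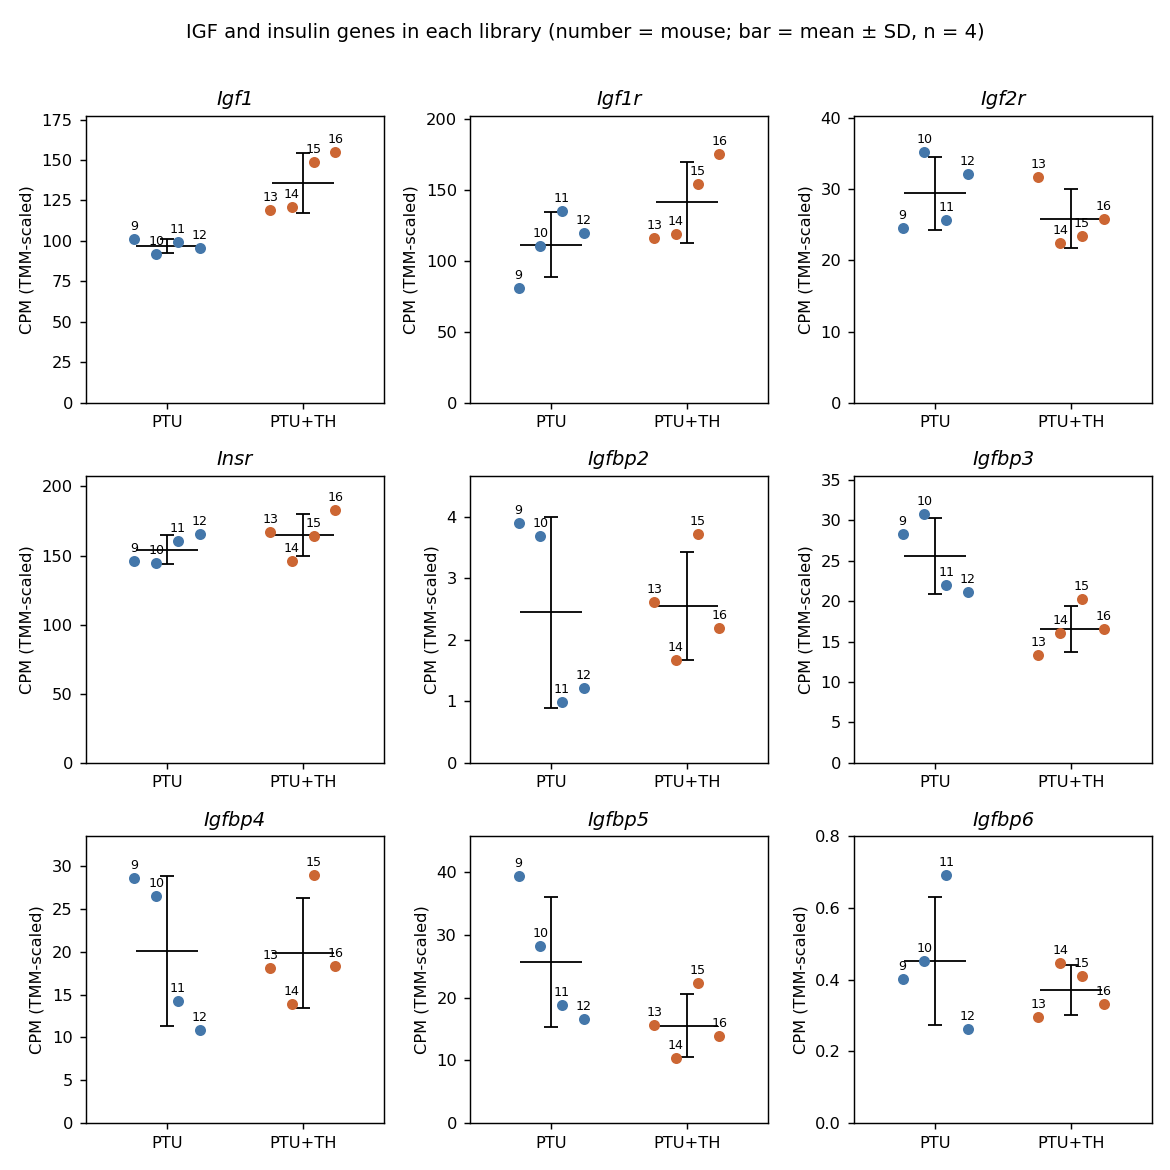
Level of the 9 members with counts in each library, in CPM after TMM scaling (y axes, from 0); points are mice, labelled by number, and bars are the mean ± SD of 4. Igf1 in PTU+TH lies between 119.4 and 155.0 CPM, above all PTU libraries, and Igfbp3 lies below all of them.

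Igf1 (chromosome 10, 87858265 to 87937042, GRCm38, plus strand) encodes the ligand IGF-1. PTU mice 9, 10, 11 and 12 had 101.1, 91.8, 99.4 and 95.4 CPM, a narrow range. PTU+TH mice 13, 14, 15 and 16 had 119.4, 121.0, 148.9 and 155.0 CPM. All 4 PTU+TH libraries were above all 4 PTU libraries, and mice 15 and 16 were the highest. The mean rose from 96.9 ± 4.17 to 136.1 ± 18.5 CPM (SD, n = 4 each), a log2 fold change of 0.49 (SE 0.10, 95% interval 0.27 to 0.71, edgeR adjusted p = 0.0247), or 1.40-fold.

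The call for Igf1 was close to the threshold. With the presence of Y-linked counts as a covariate the log2 fold change was 0.31 (edgeR adjusted p = 0.189), and with library totals in place of TMM it was 0.46 (adjusted p = 0.0512). Without mouse 10, 12, 15 or 16 the edgeR adjusted p was 0.0783, 0.0727, 0.0929 or 0.0885, at log2 fold changes of 0.47, 0.48, 0.44 or 0.42. The call was kept with DESeq2 (adjusted p = 0.00175, where 4.23% of genes were called) and without a filter on low counts (edgeR adjusted p = 0.0106, 1.52% called). It was also kept with the set of mouse numbers as a covariate (edgeR adjusted p = 0.00596, 3.7% called). The gene's 5′ part overlaps the antisense gene Igf1os, which had 102 counts over all libraries, and 93.5% of the gene body is free of other genes.

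Markers of cell types known to express Igf1 were summed in each library. The summed level of 8 VIP class markers ran from 275.9 to 422.7 CPM in PTU and from 251.4 to 266.7 CPM in PTU+TH, lower in all 4 PTU+TH libraries (exact permutation test over 70 arrangements, two-sided, p = 0.0286, the smallest possible; 0.4 after adjustment over 14 lists). Vip itself, the neuropeptide that defines the class, averaged 134.6 ± 28.1 CPM in the PTU mice and 109.9 ± 8.66 CPM after TH (SD, n = 4 each; edgeR adjusted p = 0.369). Of the 8 VIP class markers 1 was called, Htr3a, a serotonin receptor subunit (log2 fold change -1.11, edgeR adjusted p = 0.0344). The median log2 fold change was -0.29. The log2 fold changes of 6 were below 0 and those of Crh and Chat above 0, at 0.06 and 0.97 (edgeR adjusted p = 0.964 and 0.131). The 9 microglia markers summed to 14.0 to 19.7 CPM in PTU and 17.4 to 37.3 CPM in PTU+TH, overlapping ranges (exact permutation test, two-sided, p = 0.171; 0.798 after adjustment over 14 lists). Mouse 15 held the highest sum, against 17.4 to 19.2 CPM in the other PTU+TH mice. Without mouse 15 the log2 fold change of Igf1 was 0.44 (edgeR adjusted p = 0.0929). Without mouse 16, which had a sum of 17.9 CPM and the highest Igf1, it was 0.42 (edgeR adjusted p = 0.0885). Of the 8 tested microglia markers 0 were called. Their log2 fold changes were above 0 in 7, up to 1.09 (C1qa), and below 0 in Aif1 (-0.39), with a median of 0.57 against -0.01 over all genes. Csf1r, which gave the largest part of the sum, averaged 7.15 ± 1.43 CPM in the PTU mice and 9.45 ± 3.9 CPM after TH (SD, n = 4 each; edgeR adjusted p = 0.598). Tmem119, a defining microglia gene, was at 3.91 CPM in mouse 15 and at 0.262 to 1.28 CPM in the other 7 libraries (edgeR adjusted p = 0.463), while P2ry12, which has no base free of other genes, was listed at 0. The part of these cells in the level of Igf1 was not tested, and in bulk nuclei fewer cells of a type and less RNA per cell cannot be told apart.

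Igf2 (chromosome 7, 142650766 to 142666816, minus strand) encodes IGF-2 and had 0 counts in all 8 libraries. Only 3 of its 16051 bases lie outside the overlapping gene Gm49394, which was also listed at 0, as was the antisense gene Igf2os. All 1265 protein-coding genes that lie wholly inside another gene were listed at 0, so the 0 of Igf2 gives no level.

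Igf1r (chromosome 7, 67952827 to 68233668, plus strand), the receptor tyrosine kinase for both ligands, had 80.8, 110.4, 135.0 and 119.4 CPM in PTU mice 9 to 12, while PTU+TH mice 13 to 16 had 116.3, 118.9, 154.0 and 175.7 CPM. The groups overlapped, and mice 15 and 16 were again the highest. The log2 fold change was 0.34 (SE 0.17, 95% interval -0.02 to 0.71, edgeR adjusted p = 0.432), and with Y-linked counts as a covariate it was 0.08.

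Insr (chromosome 8, 3122061 to 3279617, minus strand), the insulin receptor, had the smallest SD for its mean over the 8 libraries among the members (1.02 ± 0.0861 CPM per kb of gene body). It had 146.1, 144.7, 160.2 and 165.9 CPM in the 4 PTU mice, while the 4 PTU+TH mice had 166.8, 145.8, 164.0 and 183.2 CPM. The log2 fold change was 0.10 with a 95% interval of -0.11 to 0.30 (edgeR adjusted p = 0.779).

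Igf2r (chromosome 17, 12682406 to 12769664, minus strand), the receptor that clears IGF-2, had 24.6, 35.3, 25.7 and 32.1 CPM in the 4 PTU mice, while the 4 PTU+TH mice had 31.7, 22.5, 23.5 and 25.8 CPM. The groups overlapped (log2 fold change -0.18, 95% interval -0.50 to 0.13, edgeR adjusted p = 0.688). Only 67.5% of its body is free of other genes, because the antisense RNA Airn (12741311 to 12860136, plus strand, 3851 counts over all libraries) covers its 5′ part, so its counts come from the 3′ part and are uncertain.

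Igfbp3 (chromosome 11, 7206086 to 7213923, minus strand) encodes the main carrier of IGFs in blood. PTU mice 9 to 12 had 28.3, 30.8, 22.0 and 21.2 CPM. PTU+TH mice 13 to 16 had 13.4, 16.1, 20.3 and 16.6 CPM, so all 4 lay below the PTU libraries, and mice 12 and 15 came closest to each other. The means were 25.6 ± 4.71 and 16.6 ± 2.84 CPM (SD, n = 4 each). The log2 fold change of -0.63 (SE 0.16, 95% interval -0.96 to -0.29) did not pass in the edgeR quasi-likelihood test over all genes (adjusted p = 0.06, unadjusted p = 0.00148).

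Igfbp3 passed in 3 of 16 alternatives: with DESeq2 (adjusted p = 0.00992, where 4.23% of genes were called), without a filter on low counts (edgeR adjusted p = 0.0221, 1.52% called) and with the set of mouse numbers as a covariate (edgeR adjusted p = 0.0456, 3.7% called). With library totals in place of TMM its groups overlapped, at a log2 fold change of -0.66 (edgeR adjusted p = 0.147). Its direction was lower in all 16. Mouse 10, with the highest Igfbp3, also had the highest sum of 8 endothelium markers, 174.4 CPM against 36.5 to 127.5 CPM in the other libraries. Within the PTU mice the endothelium sums, 58.4, 174.4, 49.8 and 36.5 CPM in mice 9 to 12, ranked in the same order as Igfbp3. The astrocyte sums (257.0, 265.6, 200.5 and 148.1 CPM) and the pericyte and smooth muscle sums (34.3, 106.0, 27.0 and 22.0 CPM) did so too. Within the PTU+TH mice the endothelium sums were 94.9, 39.9, 127.5 and 54.6 CPM in mice 13 to 16. There mouse 15 was highest in both the endothelium sum and Igfbp3. Mouse 13 had the second highest endothelium sum with the lowest Igfbp3. Without mouse 10 the log2 fold change of Igfbp3 was -0.52 (edgeR adjusted p = 0.187), and without mouse 13 it was -0.53 (edgeR adjusted p = 0.171). The part of vessel cells or astrocytes in the level of Igfbp3 was not tested.

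Igfbp5 (chromosome 1, 72857932 to 72874884, minus strand), a binding protein that attaches to extracellular matrix, had 39.4, 28.2, 18.8 and 16.6 CPM in the 4 PTU mice, while the 4 PTU+TH mice had 15.7, 10.3, 22.3 and 13.8 CPM. Mice 9 and 10 stood above all other libraries, and the remaining PTU mice overlapped the PTU+TH mice. The log2 fold change was -0.73 (SE 0.30, 95% interval -1.39 to -0.07, edgeR adjusted p = 0.323), and without mouse 9 it was -0.45.

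Igfbp4 (chromosome 11, 99041244 to 99054392, plus strand), the preferred substrate of PAPP-A, had 28.6, 26.5, 14.3 and 10.9 CPM in the 4 PTU mice, while the 4 PTU+TH mice had 18.1, 13.9, 29.0 and 18.3 CPM. Mice 9, 10 and 15 were high and the others low, so the spread was within the groups. The log2 fold change was -0.03 with a 95% interval of -0.74 to 0.69 (edgeR adjusted p = 0.992), so falls and rises alike lie within it.

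Igfbp2 (chromosome 1, 72824503 to 72852474, plus strand) encodes a binding protein of glia and the developing brain and lies 5457 bases from Igfbp5, end to end. The PTU mice gave 107, 98, 20 and 28 counts, the PTU+TH mice 62, 49, 82 and 46. In CPM this was 3.90, 3.69, 0.99 and 1.22 against 2.61, 1.68, 3.73 and 2.19, and the log2 fold change was 0.04 (95% interval -0.90 to 0.98, edgeR adjusted p = 0.99). As for Igfbp4, mice 9, 10 and 15 were the highest.

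For Igfbp2 and Igfbp4 the difference between the groups went opposite ways in the mice taken by number. Mice 13 and 14 lay below mice 9 and 10 in both genes, and mice 15 and 16 lay above mice 11 and 12. The difference between these sets was not tested, and the labels do not say what the numbers stand for. The summed level of 9 astrocyte markers was also highest in mouse 15, at 398.2 CPM, against 147.8 to 284.5 CPM in the other 7 libraries, with 257.0 and 265.6 CPM in mice 9 and 10. Mouse 13 had the next highest sum, 284.5 CPM, but was lower than mice 9 and 10 in both Igfbp2 and Igfbp4. Gfap, a filament gene of astrocytes, has no base free of other genes and was listed at 0. The summed level of 6 oligodendrocyte precursor markers was 28.3, 26.3, 16.0 and 9.18 CPM in mice 9 to 12. In mice 13 to 16 it was 23.8, 12.2, 40.4 and 16.3 CPM, so mice 15, 9 and 10 were the highest there too. The part of RNA of either cell type in these binding proteins was not tested.

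Igfbp6 (chromosome 15, 102144362 to 102149511, plus strand), which prefers IGF-2, was low, with 11, 12, 14 and 6 counts in the PTU mice against 7, 13, 9 and 7 in the PTU+TH mice. Its 95% interval ran from -1.25 to 0.72 on the log2 scale (edgeR adjusted p = 0.904), so no difference was detectable at this depth.

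**Figure D2:**
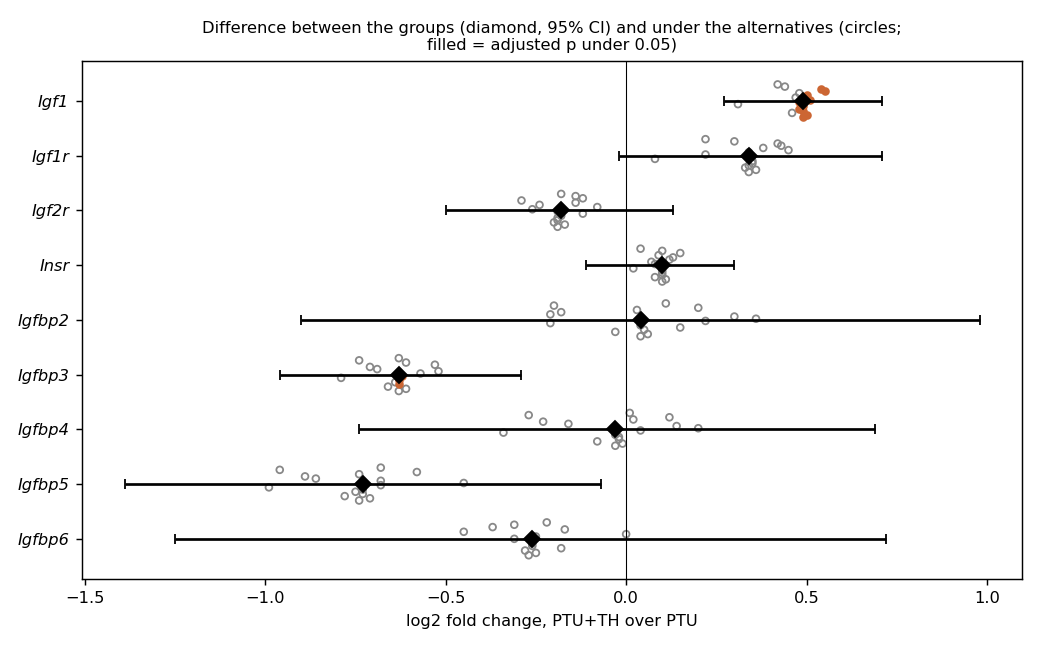
Log2 fold change of PTU+TH over PTU (x axis) for the 9 tested members; diamonds and bars give the edgeR estimate with its 95% interval, and circles the estimates under the alternatives, filled where the adjusted p was under 0.05. Igf1 is the member called in the main test, at 0.49, and Igfbp2 and Igfbp4 have circles on both sides of 0.

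Levels of different members were compared per kilobase of gene body free of other genes, since reads of introns appear to be counted. Per gene body Igfbp3 was the highest, at 3.26 ± 0.601 CPM per kb in PTU and 2.12 ± 0.362 CPM per kb in PTU+TH (SD, n = 4 each), and lay above Igf1 in all 8 libraries. Igf1 lay above Insr in all 8 libraries, while the places of Igfbp4 and Igfbp5 among them were not settled, and the order of the 4 means was not the same in both groups (not tested). In the PTU mice Igf1, Igfbp4, Igfbp5 and Insr stood at 1.32 ± 0.0567, 1.53 ± 0.668, 1.52 ± 0.614 and 0.99 ± 0.0669 CPM per kb, and after TH at 1.85 ± 0.251, 1.51 ± 0.491, 0.918 ± 0.296 and 1.06 ± 0.0982 CPM per kb. Igf1 was above Igfbp4 in 5 of 8 libraries, Igfbp4 above Igfbp5 in 5 of 8, and Igfbp5 above Insr in 4 of 8, of which 3 were PTU. Insr was above Igf2r in all 8 libraries. Over all 8 libraries, Igf2r and Igf1r, at 0.469 ± 0.0797 and 0.45 ± 0.103 CPM per kb, changed places between libraries, with Igf2r above in 4 of 8. In PTU they stood at 0.499 ± 0.087 and 0.397 ± 0.0812 CPM per kb, with Igf2r above in 3 of 4 libraries. After TH they stood at 0.44 ± 0.0698 and 0.503 ± 0.102 CPM per kb, with Igf2r above in 1 of 4. Igfbp2 and Igfbp6 were lowest, at 0.0894 ± 0.0418 and 0.0799 ± 0.0258 CPM per kb. The order depends on the length used. Per kilobase of exon, tried after the data were seen, Igf1, Insr and Igf1r came first, at 11.8 ± 2.46, 11.6 ± 0.975 and 7.52 ± 1.72 CPM per kb. Igfbp3 was at 6.74 ± 1.92, and Igfbp2 and Igfbp6 were again lowest (SD, n = 8). These means are over both groups. By the means of the PTU mice alone, Insr came before Igf1 and Igfbp3 before Igf1r.

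**Figure D3:**
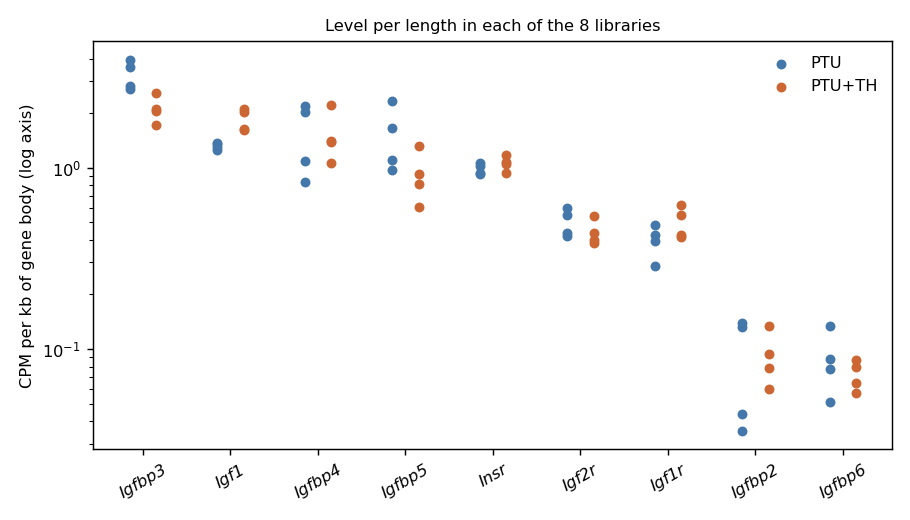
CPM per kilobase of gene body free of other genes (y axis, log scale) for the 9 members with counts, ordered by their mean over 8 libraries; points are libraries, coloured by group. The means run from 2.69 (Igfbp3) to 0.0799 (Igfbp6), and neighbours such as Igf1 and Igfbp4 overlap.

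The rest of the pathway was described by 66 further genes in 7 lists, of which 57 were tested. Of these 57, 1 was called higher (Stc2) and 0 lower, near the 1.49% and 0.634% of all genes. Their median log2 fold change was 0.04 against -0.01 over all genes. Groups did not overlap in 5 that were higher and 1 that was lower. Over the 17355 genes tested they did not overlap in 812 that were higher and 700 that were lower, 8.71% in either direction.

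Stc2 (chromosome 11, 31357307 to 31370074, minus strand) encodes stanniocalcin-2, a secreted inhibitor of PAPP-A. The PTU mice gave 49, 38, 30 and 49 counts and the PTU+TH mice 96, 116, 110 and 69, so every PTU+TH library was above every PTU library. Its mean rose 2.38-fold, from 1.71 ± 0.328 to 4.08 ± 0.704 CPM (SD, n = 4 each). On the log2 scale this was 1.25 (SE 0.24, edgeR adjusted p = 0.0144). The call was lost with Y-linked counts as a covariate (log2 fold change 1.23, edgeR adjusted p = 0.0966) and without mouse 15 (1.14, adjusted p = 0.0619), with log2 fold changes close to that of the full set.

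The list of proteases, stanniocalcins and insulin degradation held 5 tested genes, 1 called (1.49% of all genes were called higher), with a median log2 fold change of 0.52 against -0.01 over all genes. Groups did not overlap in 3 of the 5, all higher, against 8.71% of all genes in either direction. Pappa, the protease PAPP-A, had 6.78, 6.06, 7.57 and 8.40 CPM in the 4 PTU mice, while the 4 PTU+TH mice had 10.4, 9.21, 10.4 and 13.4 CPM, without overlap. Its log2 fold change of 0.59 (SE 0.17) had an edgeR adjusted p of 0.105. Ide, the insulin-degrading enzyme, did not overlap either, with means of 145.6 and 171.4 CPM (log2 fold change 0.24, edgeR adjusted p = 0.251). Htra1, a secreted serine protease, has no base free of other genes and was listed at 0.

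Of the 15 tested adaptors and docking proteins, 0 were called, and log2 fold changes ran from -0.18 to 0.44. Irs1, an adaptor of both kinase receptors, was the furthest from 0. It had 21.4, 24.9, 22.1 and 24.1 CPM in the 4 PTU mice, while the 4 PTU+TH mice had 27.5, 27.3, 35.7 and 35.2 CPM, without overlap (log2 fold change 0.44 ± 0.12 SE, adjusted p = 0.0898 with edgeR). The 10 genes of PI3K, PDK1 and AKT were the most even list, with 0 called and log2 fold changes between -0.18 and 0.14.

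Among the 13 phosphatases and negative regulators, 0 were called. Socs2, a cytokine-signalling suppressor that dampens growth hormone signalling, had 40.9, 46.3, 53.6 and 49.6 CPM in the 4 PTU mice, while the 4 PTU+TH mice had 35.7, 33.6, 37.1 and 38.7 CPM, lower without overlap (log2 fold change -0.39 ± 0.10 SE, adjusted p = 0.0724 with edgeR). Foxo1, a transcription factor that AKT keeps out of the nucleus, was the nearest to a call among 8 tested AKT targets (log2 fold change 0.47 ± 0.15 SE, adjusted p = 0.141 with edgeR), and its groups overlapped. Igf2bp3, an RNA-binding protein named for its binding to Igf2 mRNA, had a log2 fold change of 0.36 (SE 0.12, edgeR adjusted p = 0.17) without overlap, and 0 of the 3 tested genes of its list were called.

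Irs1, Pappa and Socs2 were called in 2, 2 and 3 of the 16 alternatives. All 3 passed with DESeq2 (adjusted p = 0.0339, 0.0294 and 0.0237), where 4.23% of genes were called, and with the set of mouse numbers as a covariate (edgeR adjusted p = 0.0452, 0.0454 and 0.0222), where 3.7% were. Socs2 also passed without mouse 9 (edgeR adjusted p = 0.0208). With Y-linked counts as a covariate the log2 fold changes of Irs1, Pappa and Socs2 were 0.24, 0.44 and -0.46 (edgeR adjusted p = 0.536, 0.494 and 0.163). Those of Foxo1 and Igf2bp3 were then 0.28 and 0.23 (edgeR adjusted p = 0.654 and 0.66).

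Of the 8 further ligands, receptors and binding proteins, 3 were tested and 0 called. Igfals, the acid-labile subunit that stabilises IGF complexes in blood, was the furthest from 0 at -1.18 on the log2 scale (edgeR adjusted p = 0.242). It was low, with 14, 33, 29 and 31 counts in the PTU mice and 7, 19, 9 and 13 in the PTU+TH mice, and its groups overlapped. Ins1, an insulin gene, had 0 counts, and Ins2, Igfbp1 and Igfn1 were too low to test. Insrr, the orphan receptor related to the insulin receptor, likewise has no free base and was listed at 0.

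**Figure D4:**
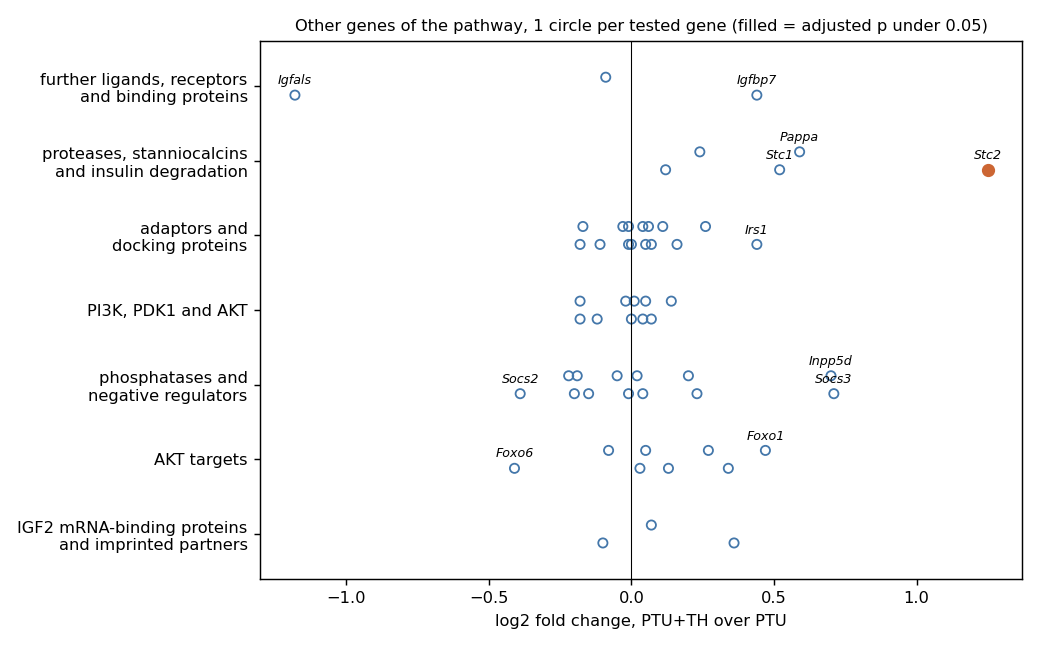
Log2 fold change of PTU+TH over PTU (x axis) for the 57 tested genes of 7 pathway lists (rows); each circle is a gene, filled where the edgeR adjusted p was under 0.05. Stc2, at 1.25, is the filled circle, and the PI3K, PDK1 and AKT genes lie within -0.18 to 0.14.

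The genes whose profile over the 8 libraries came nearest to that of Igf1 were sought among 12779 genes averaging 1 CPM or more, by the root mean square difference of log2 CPM after centring. They were Nceh1, Ankrd29, Klf3, Lrrc3b and Sept8, with differences of 0.068, 0.086, 0.089, 0.090 and 0.093, where Igf1 itself varied by 0.271 about its mean. The likeness was measured over the same 8 libraries and includes the difference between the groups, so the log2 fold changes of these 5 genes, 0.42 to 0.52, follow from how they were chosen. Klf3 encodes a Krüppel-like transcription factor and Nceh1 a cholesteryl ester hydrolase.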

How the data were processed

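Nuclear RNA of sorted cortical GABAergic neurons was sequenced from 8 mice, 4 PTU and 4 PTU+TH, grouped by sample title. The authors deposited raw counts of reads per gene symbol, 1 file per library. Bowtie2 2.5.3 and the builds mm10 and GRCm38 are named in the submitters' processing notes, and the counting program, strand and treatment of introns are not given in the sources used here. The symbols are those of GENCODE M21. All 591 protein-coding genes inside introns of other genes were at 0, so counts appear to be taken over gene bodies regardless of strand, without reads shared by overlapping genes, while 21.5% of 11727 genes free of overlap were at 0.

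Counts were filtered with filterByExpr, scaled by TMM and tested with edgeR 4.0.16 (robust quasi-likelihood test, group as the only term) in R 4.3.3, with Benjamini-Hochberg adjustment over 17355 genes. SE is the log2 fold change over the square root of F. The scripts were tested on simulated data. Marker list sums were compared with exact permutation tests. In the microglia list 1 further marker is not reported here and was left out of the sum. The members and lists were chosen with earlier results of these data known. Named were all members, the 6 further pathway genes with the smallest p, and the 5 genes nearest to the member with the smallest p in profile. Other genes are named as examples of their list. Alternatives were RLE, upper quartile and total scaling, DESeq2 1.42.0, limma 3.58.1 voom, no filter, 2 covariates (presence of Y-linked counts, and mice 9, 10, 13, 14 against 11, 12, 15, 16, a split the labels do not call a batch) and leaving out each library. Each library comes from 1 cortex, per the labels' protocols.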

Additional observations from a re-analysis of the deposited data

Results flagged for a closer look

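Among 58 sets of 4 values, from the members, the named pathway genes and the marker lists, 3 had a single library far from the other 3 of its group, where chance gives about 1 in 20, or 2.9. The 9 microglia markers summed to 37.3 CPM in PTU+TH mouse 15 against 17.4 to 19.2 CPM in the other PTU+TH mice. The other two were in PTU mouse 10. Its 8 endothelium markers summed to 174.4 CPM against 36.5 to 58.4 CPM in the other PTU mice. Its 8 markers of pericytes and smooth muscle summed to 106.0 CPM against 22.0 to 34.3 CPM. None of the 9 members with counts was set apart in a single library in this way, and without mouse 10 the log2 fold change of Igfbp3 was -0.52 and that of Igfbp5 -0.68.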

How the results depend on the processing

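No paired analysis was possible because no mouse number is shared by PTU and PTU+TH. Igf1 kept its direction in all 16 alternatives and its call in 10. It was 0.46 on the log2 scale with library totals only, 0.31 with Y-linked counts as a covariate, and 0.42 to 0.55 when each library was omitted in turn (adjusted p 0.0189 to 0.0929). Igfbp3 was called at -0.63 with DESeq2, -0.63 without a filter and -0.62 with the mouse number set, and lay between -0.74 and -0.52 (adjusted p 0.0553 to 0.187) without single libraries. The direction of Igfbp2 turned with library totals only (-0.03) and with Y-linked counts (-0.21), and ran from -0.21 to 0.36 without single libraries. That of Igfbp4 turned with the mouse number set (0.04) and ran from -0.27 to 0.20. Igf1r, Igf2r, Insr, Igfbp5 and Igfbp6 stayed uncalled in every alternative that gave a value, and DESeq2 gave no adjusted p for Igfbp6. None of these 5 turned direction, but Igfbp6 reached -0.00 without mouse 11. Without single libraries Igf1r ran from 0.22 to 0.45, Igf2r from -0.29 to -0.08 and Insr from 0.04 to 0.15. Igfbp5 ran from -0.96 to -0.45 and Igfbp6 from -0.45 to -0.00. With Y-linked counts as a covariate Insr was 0.02. Stc2 was called in 14 of 16, and Irs1, Pappa and Socs2 in 2, 2 and 3.

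Against 368 genes called (258 higher, 110 lower), DESeq2 gave 721 (439 and 282), the Y-linked covariate 129 (106 and 23), the mouse number set 642 (428 and 214), and leaving out a library 182 (without mouse 15) to 499 (without mouse 9), with 233, 238, 227 and 209 without mice 12, 13, 14 and 16. The cause was not tested. The 2 members without overlap became 1, Igf1, with library totals only. With exon length in place of gene body, added after seeing the data, Igfbp3 averaged 6.74 CPM per kb over all 8 libraries. This was below Igf1 (11.8), Insr (11.6) and Igf1r (7.52). By the means of the PTU mice alone, Igfbp3 was above Igf1r. The largest shift of the all-gene median under another scaling was -0.021.

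Differences of summed markers (PTU+TH minus PTU, CPM) ranged without single libraries from -87.2 to -38.3 for the VIP class (exact permutation p 0.0286 to 0.0857), -620.0 to 177.0 for GABAergic neurons, -33.8 to 44.3 for the PV class, -305.0 to -149.0 for the SST class, -248.0 to 70.3 for LAMP5, -0.802 to 82.7 for astrocytes, -5.44 to 23.5 for excitatory cells, 4.04 to 37.3 for oligodendrocytes, -2.50 to 6.89 for their precursors, 1.88 to 8.51 for microglia, -16.6 to 31.0 for endothelium, -9.60 to 19.1 for pericytes and smooth muscle, -4.38 to -1.21 for fibroblasts and -0.404 to 0.0496 for choroid plexus.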
